A study of Mus musculus with 46 samples.

Results

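The response to a label of Mettl3 loss was set against the response to a label of Igf2bp3 knockdown, gene by gene, in mouse cells induced towards primitive endoderm (PrE). The comparison rested on 8 of the 46 libraries of the series, 2 in each of 4 groups. The tested quantity was the difference of 2 responses, Mettl3_cKO minus Mettl3_WT less siIgf2bp3 minus siNC. All 8 cultures were EPSCs, pluripotent stem cells kept under conditions that broaden their developmental potential, grown in PrE-inducing medium. Libraries labelled Mettl3_cKO carried the genotype label of a conditional Mettl3 knockout, and Mettl3_WT was their wild-type control. Libraries labelled siIgf2bp3 and their controls labelled siNC were named for small interfering RNAs. The cell line or clone, the deleted exons, the recombinase, the siRNA sequences, the time between perturbation and harvest and the kit of each library are not given in the labels. Each response had its own controls and its own deposited table, so perturbation and table cannot be told apart in the difference.

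N6-methyladenosine (m6A) is an internal mark of mRNA. METTL3 is the catalytic subunit of the complex that writes it, and VIRMA is a scaffold of the same complex. IGF2BP3 is an RNA-binding protein described as a reader that stabilises marked mRNAs. PrE separates from the epiblast in the blastocyst under FGF signalling and then forms the visceral and parietal endoderm of the yolk sacs. It is specified by GATA and SOX transcription factors, receives PDGF signals, and secretes laminin and type IV collagen into basement membrane. The title of the series places m6A and the stability of transcription factor mRNAs in this decision, and the comparison asks how far a writer label and a reader label moved the same genes.

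Total counts per library were 8516622 to 12164428 in the Mettl3 table and 8160276 to 8643434 in the siIgf2bp3 table. Levels below are library-size-normalised counts (CPM) scaled with TMM factors over the 8 libraries, responses and differences are log2 values ± SE, and n = 2 libraries in every group. "Rose", "fell" and "called" refer to an adjusted p below 0.05 in edgeR's quasi-likelihood test over all genes tested. Whether replicates were separate cultures is not stated in the labels, and the p-values reflect only how far these libraries varied, possibly for technical reasons. Mettl3 stood at 35.4 and 37.6 CPM in Mettl3_cKO libraries, against 38.3 and 35.7 CPM in Mettl3_WT libraries (-0.02 ± 0.11, adjusted p = 0.978). Counts over a whole gene do not check the removal of some exons. Igf2bp3 stood at 115 and 109 CPM in siIgf2bp3 libraries, against 96.1 and 111 CPM in siNC libraries (0.11 ± 0.11, adjusted p = 0.577). Neither label came with a fall of its named gene, and the groups are therefore called by their labels throughout. PrE and pluripotency markers were present in all 8 libraries, with Sox17 at 23.1 CPM or more and Pou5f1 at 589 CPM or more. The siNC replicates differed from each other more than the other pairs did (chi-square per degree of freedom 9.82, against 3.23 for Mettl3_cKO, 3.17 for Mettl3_WT and 2.02 for siIgf2bp3), and all pairs differed along GC content (Spearman's rho of replicate 2 minus replicate 1 across 12396 genes -0.54 for siNC, 0.18 for siIgf2bp3, 0.36 for Mettl3_cKO and -0.38 for Mettl3_WT). In the same genes the siIgf2bp3 response fell with GC content (rho -0.47), the Mettl3 response did not track it (rho -0.04), and the difference rose with it (rho 0.41). Genes share a library in these coefficients and are not replicates. Each result below was also computed with a GC correction of every library.

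Fewer genes were called with the Mettl3 label than with the siIgf2bp3 label, an order that depended on the libraries. In the Mettl3 response 518 of 13115 genes tested were called (3.95%), 329 rising (2.51%) and 189 falling (1.44%). The split became 136 and 138 with scaling to ribosomal protein genes, and 500 (3.81%) and 917 (6.99%) with GC correction. In the siIgf2bp3 response 945 of 12918 were called (7.32%), 361 rising (2.79%) and 584 falling (4.52%), or 1061 (8.21%) and 989 (7.66%) with GC correction. The siIgf2bp3 calls numbered 242 and 315 without siIgf2bp3 replicates 1 and 2, and 2424 and 4936 without siNC replicates 1 and 2. The Mettl3 calls numbered 373 and 382 without Mettl3_cKO replicates 1 and 2, and 394 and 362 without Mettl3_WT replicates 1 and 2. The difference was called for 374 of 13480 genes (2.77%). It was positive for 227 (1.68%), where the Mettl3 response lay above the siIgf2bp3 response, and negative for 147 (1.09%), and GC correction made the split 442 (3.28%) and 823 (6.11%). Across the 12466 genes tested in all 3 fits the responses were related weakly (Spearman's rho 0.19, a description across genes). The number of called differences depended on every library. It was 140 and 77 without Mettl3_cKO replicates 1 and 2, 120 and 74 without Mettl3_WT replicates 1 and 2, 65 and 70 without siIgf2bp3 replicates 1 and 2, and 740 and 2818 without siNC replicates 1 and 2.

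Among the 12466 genes 5 classes of interest were set apart, and most genes were in none of them. Genes that fell in both responses numbered 107 (0.858%), which was 56.9% of the 188 Mettl3 falls (1.51%) and 18.9% of the 567 siIgf2bp3 falls (4.55%). With GC correction the 293 shared falls were 32.2% of 910 Mettl3 falls and 30.3% of 967 siIgf2bp3 falls. Genes that rose in both numbered 32 (0.257%), which was 10.6% of the 303 Mettl3 rises (2.43%) and 8.89% of the 360 siIgf2bp3 rises (2.89%), and with GC correction 86, or 18.6% of 463 and 8.14% of 1056. No test of either overlap was made. A further 6 genes (0.0481%) were called in opposite directions. A gene was assigned to one label alone when the difference was called, that label's response was called on the same side, and the other response was not called in that direction. This held for 35 genes with the Mettl3 label (0.281%; 29 higher and 6 lower) and for 257 with the siIgf2bp3 label (2.06%; 140 lower and 117 higher), and the 6 opposite genes are counted in both. Leaving out 1 library left 58 to 143 shared falls, 9 to 89 shared rises, 0 to 40 opposite calls, 7 to 89 genes of the Mettl3 label alone and 36 to 2521 of the siIgf2bp3 label alone. The extremes came without Mettl3_cKO replicate 1 (58), without siIgf2bp3 replicate 1 (9, 0, 7 and 36; 7 also without Mettl3_cKO replicate 2 and Mettl3_WT replicate 2) and without siNC replicate 2 (143, 89, 40, 89 and 2521).

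**Figure D1:**
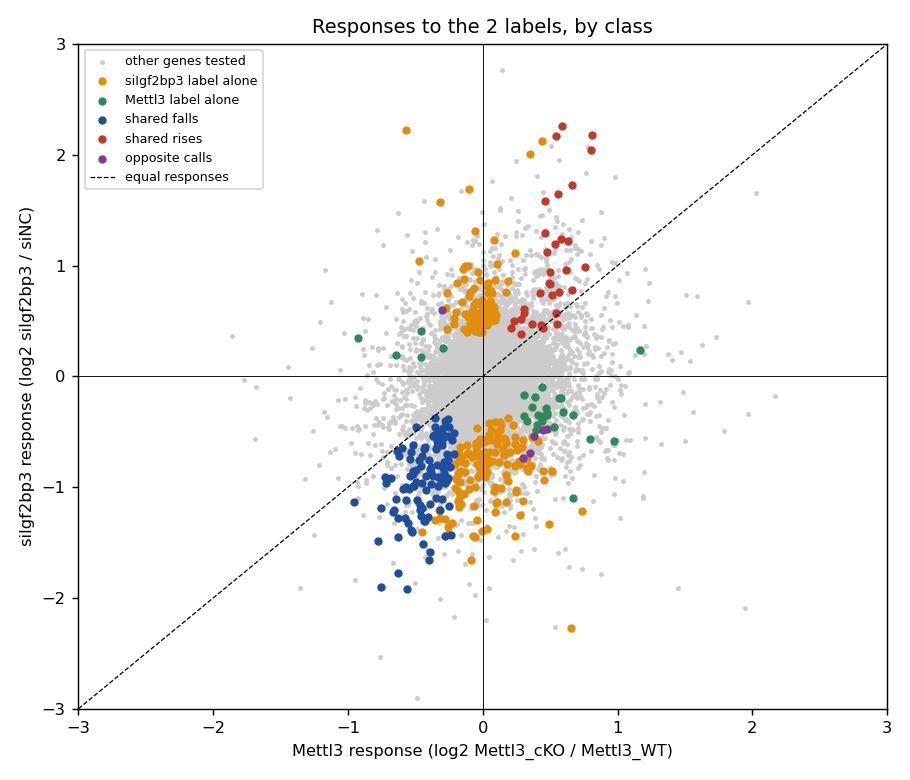
Mettl3 response (x axis, log2 of Mettl3_cKO over Mettl3_WT) against siIgf2bp3 response (y axis, log2 of siIgf2bp3 over siNC) for the 12466 genes tested in all 3 fits, coloured by class. The 107 shared falls lie in the lower left, 106 of them below the line of equal responses, and the 257 genes of the siIgf2bp3 label alone lie above and below a Mettl3 response near 0.

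Regulators of PrE, basement membrane genes and genes of the visceral endoderm were among the shared falls. Gata6 and Gata4, the GATA factors that specify PrE, Sox7, an endoderm SOX factor, and Pdgfra, the receptor subunit on the PrE surface, all fell in both responses. Gata6 had 173 and 184 CPM in Mettl3_cKO libraries, against 239 and 249.9 CPM in Mettl3_WT libraries (-0.45 ± 0.07, adjusted p = 7.30e-05), and 98.1 and 100.1 CPM in siIgf2bp3 libraries, against 212 and 172 CPM in siNC libraries (-0.96 ± 0.12, adjusted p = 0.00147). Gata4 had 208 and 218 CPM in Mettl3_cKO libraries, against 290.4 and 293 CPM in Mettl3_WT libraries, and 109.5 and 98.6 CPM in siIgf2bp3 libraries, against 257 and 214 CPM in siNC libraries. In neither gene did the groups of a table overlap. The difference was called for Gata4 (0.72 ± 0.13, adjusted p = 0.00497), and for Gata6 it missed the threshold (0.50 ± 0.13, adjusted p = 0.0523) unless GC was corrected (0.30, adjusted p = 0.0261). Sox7 had 114 and 106 CPM in Mettl3_cKO libraries, against 154 and 151 CPM in Mettl3_WT libraries, and 55.3 and 54.3 CPM in siIgf2bp3 libraries, against 126 and 126 CPM in siNC libraries. It fell by more with the siIgf2bp3 label (-0.47 and -1.21 log2; difference 0.72 ± 0.12, adjusted p = 0.00340). Pdgfra had 369 and 383 CPM in Mettl3_cKO libraries, against 468 and 481 CPM in Mettl3_WT libraries, and 130.2 and 134 CPM in siIgf2bp3 libraries, against 232 and 288 CPM in siNC libraries (difference 0.64 ± 0.13, adjusted p = 0.0114).

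Of the 15 PrE regulators tested, 9 fell and 0 rose in the Mettl3 response (median -0.45), 10 fell and 0 rose in the siIgf2bp3 response (median -0.99), and 7 did both. Over all genes tested 1.44% and 4.52% fell, and the median was 0.00 and 0.01. Dab2, an endocytic adaptor of extraembryonic endoderm, and Foxq1, a forkhead transcription factor, were also among the 7. Dab2 fell in both (-0.53 and -0.68 log2), with a difference of 0.13 ± 0.14 (adjusted p = 0.639). With GC correction 10 fell and 0 rose in the Mettl3 response (6.99% and 3.81% of all genes). In the siIgf2bp3 response 11 then fell and 1 rose (7.66% and 8.21%). Differences with that correction were positive for 5 and negative for 1, against 3.28% and 6.11%. Without it the difference was called for 4 of the 15, Gata4, Sox7, Pdgfra and Sox17. All 4 were positive, against 1.68% of all genes. Sox17, the SOX factor of endoderm commitment, was the one of the 4 without a call in the Mettl3 response. It had 33.1 and 39.6 CPM in Mettl3_cKO libraries, against 43.5 and 44.9 CPM in Mettl3_WT libraries (-0.28 ± 0.11, adjusted p = 0.184). In siIgf2bp3 libraries it had 28.1 and 23.1 CPM, against 74.9 and 49.3 CPM in siNC libraries (-1.29 ± 0.20, adjusted p = 0.00492; difference 0.99 ± 0.23, adjusted p = 0.0281). Both Mettl3_cKO libraries lay below both controls here as well, by less. Hnf4a, an endoderm nuclear receptor, and Tcf23, a bHLH factor, were called in the Mettl3 response (-0.98 and -0.67 log2) and not in the siIgf2bp3 response (-0.60 and -0.22), but neither difference was called (adjusted p = 0.582 and 0.394).

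**Figure D2:**
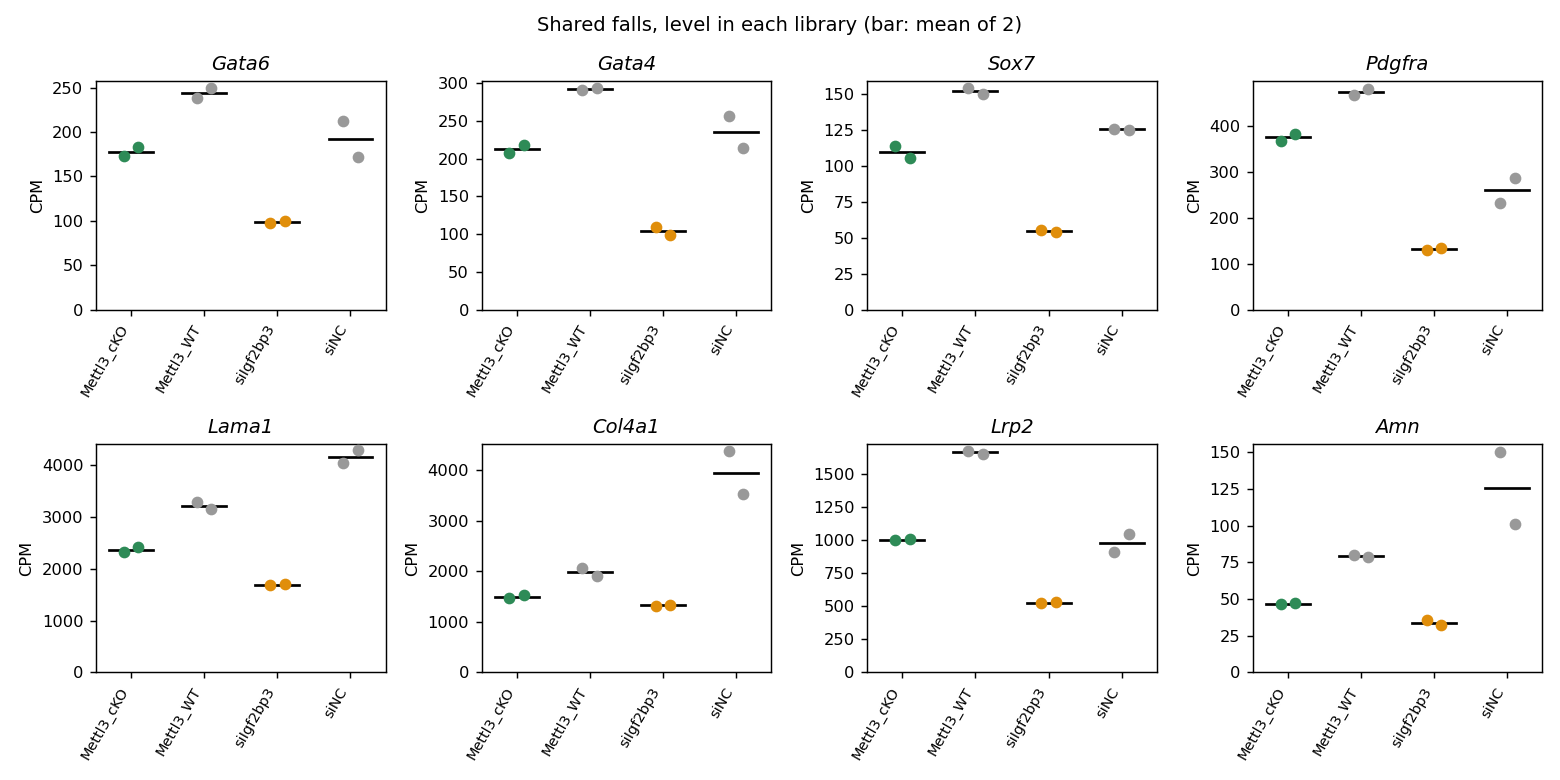
Levels of 8 shared falls in each library (CPM, linear axis from 0; 1 point per library, bar at the mean of 2) in the groups Mettl3_cKO, Mettl3_WT, siIgf2bp3 and siNC. In each gene both libraries of a perturbed group lie below both of their own controls. For Amn and Lrp2 this was a condition for ranking them among the shared falls and adds nothing to their calls. The drop is proportionally larger on the siIgf2bp3 side, least so for Lrp2.

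Of 19 basement membrane genes tested, 9 fell and 2 rose in the Mettl3 response (median -0.24), 14 fell and 0 rose in the siIgf2bp3 response (median -0.75), 8 fell in both, and the difference was called for 12, all positive (median 0.74, against -0.02 over all genes). With GC correction 12 differences were positive and 1 negative. Among all genes 1.44% fell in the Mettl3 response and 4.52% in the siIgf2bp3 response. The share of all genes with a positive difference was 1.68%, or 3.28% with GC correction. Lama1, the alpha chain of PrE laminin, had 2319 and 2416 CPM in Mettl3_cKO libraries, against 3282 and 3145 CPM in Mettl3_WT libraries, and 1677 and 1708 CPM in siIgf2bp3 libraries, against 4044 and 4282 CPM in siNC libraries (difference 0.86 ± 0.10, adjusted p = 8.60e-05). Lamb1, a beta chain, had 1542 and 1560.1 CPM in Mettl3_cKO libraries, against 1916 and 1866 CPM in Mettl3_WT libraries, and 886 and 881 CPM in siIgf2bp3 libraries, against 2315 and 2448 CPM in siNC libraries. Its difference of 1.15 ± 0.10 had the smallest adjusted p of the list (6.62e-06). Col4a1, a type IV collagen chain, had 1463 and 1538 CPM in Mettl3_cKO libraries, against 2063 and 1898 CPM in Mettl3_WT libraries, and 1314 and 1334 CPM in siIgf2bp3 libraries, against 4372 and 3534 CPM in siNC libraries (-0.39 and -1.59 log2; difference 1.18 ± 0.12). Col4a2, its partner chain, had a difference of 1.24 ± 0.15 (adjusted p = 0.000284), and Lamc1, the gamma chain, one of 0.73 ± 0.10 (adjusted p = 0.000310). Serpinh1, the collagen chaperone HSP47, had 960.0 and 992 CPM in Mettl3_cKO libraries, against 1191 and 1120.0 CPM in Mettl3_WT libraries, and 435 and 459 CPM in siIgf2bp3 libraries, against 1340.2 and 1050.1 CPM in siNC libraries (difference 1.18 ± 0.13). P4ha2, a prolyl hydroxylase, had a difference of 0.74 ± 0.12. The differences of Lama1, Lamb1, Lamc1, Col4a1, Col4a2, Serpinh1 and P4ha2 were called in all 8 fits that left out 1 library.

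Sparc, a collagen-binding matrix protein of parietal endoderm, fell with the siIgf2bp3 label alone. It had 1493 and 1512 CPM in Mettl3_cKO libraries, against 1738 and 1645 CPM in Mettl3_WT libraries (-0.17 ± 0.05, adjusted p = 0.0723), and 868 and 903 CPM in siIgf2bp3 libraries, against 1895 and 2009 CPM in siNC libraries (-1.15 ± 0.09, adjusted p = 0.000159). The difference was 0.97 ± 0.10 (adjusted p = 4.81e-05). Of the list, 2 genes made by many cell types rose with the Mettl3 label. Fn1, fibronectin, rose (0.24 ± 0.05, adjusted p = 0.00523), and Col18a1, the precursor of endostatin, rose (0.28 ± 0.07, adjusted p = 0.0187), but neither was called with the replicate block or without Mettl3_cKO or Mettl3_WT replicate 2, nor Col18a1 with DESeq2 or scaling to ribosomal protein genes. Nid2, a nidogen, fell with the Mettl3 label (-0.24 ± 0.06, adjusted p = 0.0267; difference -0.12 ± 0.11). Basement membrane genes took 1.56% and 1.63% of counts in Mettl3_cKO libraries, against 1.90% and 1.81% in Mettl3_WT libraries, and 1.30% and 1.32% in siIgf2bp3 libraries, against 2.78% and 2.57% in siNC libraries.

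Of the list of the absorptive visceral endoderm, 6 of 15 genes tested fell in the Mettl3 response (median -0.51), against 1.44% of all genes. In the siIgf2bp3 response 6 of 14 fell (median -0.86), against 4.52%. In either response 0 rose, and 5 fell in both. The difference was positive for 2 and negative for 1 of 15, against 1.68% and 1.09% of all genes. With GC correction it was 4 and 2, against 3.28% and 6.11%. Lrp2, the endocytic receptor megalin, had 999 and 1006 CPM in Mettl3_cKO libraries, against 1669.6 and 1653 CPM in Mettl3_WT libraries, and 520.5 and 529 CPM in siIgf2bp3 libraries, against 911 and 1043 CPM in siNC libraries. The responses were -0.72 and -0.91 log2 and the difference 0.17 ± 0.11 (adjusted p = 0.412). Cubn, its partner cubilin, had 1538 and 1575 CPM in Mettl3_cKO libraries, against 2296 and 2342 CPM in Mettl3_WT libraries, and 588 and 588 CPM in siIgf2bp3 libraries, against 1152 and 1385 CPM in siNC libraries (difference 0.53 ± 0.11, adjusted p = 0.0168). Amn, amnionless, which carries cubilin to the cell surface, had 46.4 and 47.0 CPM in Mettl3_cKO libraries, against 79.9 and 78.4 CPM in Mettl3_WT libraries, and 35.6 and 32.2 CPM in siIgf2bp3 libraries, against 149.9 and 101 CPM in siNC libraries. Its difference was 1.13 ± 0.20 (adjusted p = 0.00466), so all 3 genes of this uptake receptor fell in both responses, and the difference was called for Cubn and Amn. Aqp8, a water channel, had responses of -0.76 and -1.19 log2 (difference 0.42 ± 0.12, adjusted p = 0.0597), and Podxl, an anti-adhesive sialomucin, of -0.52 and -0.62 (difference 0.09 ± 0.12, adjusted p = 0.720). Dpp4, a membrane peptidase, had the negative difference (-0.82 ± 0.18, adjusted p = 0.0173), with 73.7 and 60.1 CPM in Mettl3_cKO libraries, against 78.7 and 86.1 CPM in Mettl3_WT libraries, and 48.4 and 46.4 CPM in siIgf2bp3 libraries, against 29.4 and 36.6 CPM in siNC libraries. Neither of its single responses was called.

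The other shared falls with the largest smaller response spanned transport, metabolism and signalling. Ramp2, a receptor activity-modifying protein, had 6.54 and 6.51 CPM in Mettl3_cKO libraries, against 11.5 and 10.97 CPM in Mettl3_WT libraries, and 8.45 and 9.33 CPM in siIgf2bp3 libraries, against 26.4 and 23.1 CPM in siNC libraries (difference 0.69 ± 0.26, adjusted p = 0.155). Klb, beta-klotho, an FGF co-receptor, had responses of -0.65 and -1.11 log2 (difference 0.45 ± 0.17, adjusted p = 0.150). Mogat2, an acyltransferase of triglyceride synthesis, fell in both (-0.64 and -0.67 log2), and its difference was not called. Car12, a carbonic anhydrase, Pdzd3, a PDZ scaffold, Habp2, a secreted protease, Cacna1d, a calcium channel subunit, and Shf, an SH2 adaptor, fell by 0.63 to 0.68 log2 with the Mettl3 label and by 0.91 to 1.45 log2 with the siIgf2bp3 label, and none of their 5 differences was called. A called difference separated Fam151a and Hkdc1, a hexokinase-domain protein. Fam151a had 16.6 and 17.2 CPM in Mettl3_cKO libraries, against 25.3 and 27.1 CPM in Mettl3_WT libraries, and 19.1 and 20.6 CPM in siIgf2bp3 libraries, against 70.5 and 64.4 CPM in siNC libraries (difference 1.13 ± 0.18). Hkdc1 had 22.1 and 27.7 CPM in Mettl3_cKO libraries, against 37.5 and 35.7 CPM in Mettl3_WT libraries, and 28.02 and 24.7 CPM in siIgf2bp3 libraries, against 105 and 93.4 CPM in siNC libraries. Its difference of 1.34 ± 0.18 was the largest among the 107. Both were called in all 8 fits without 1 library.

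Over the 107 shared falls the median response was -0.40 log2 with the Mettl3 label (range -0.96 to -0.21) and -0.90 with the siIgf2bp3 label (-1.92 to -0.38). The siIgf2bp3 response was the lower one in 106 of 107, against 6170 of all 12466 genes. Among the 107 the smallest fall was also larger with that label (-0.38, against -0.21), so the choice of members bears on this count. In 39 of the 107 the difference was called, always positive. The 1 gene of the 107 whose siIgf2bp3 response was not the lower one was Slc16a3, a lactate transporter (-0.50 and -0.46 log2). Its difference was not called. With GC correction 106 of the 107 fell in both, and 35 fell in both in every fit that left out 1 library. The gene last inside the class was Ubash3b, a phosphatase (-0.37 and -0.90 log2, larger adjusted p = 0.0497). The gene first outside it was Cdc42ep1, an effector of the GTPase CDC42 (-0.47 and -0.84 log2, larger adjusted p = 0.0507).

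Other readouts of the series described the same genes. In sorted cells from induced cultures, 103 of the 107 were higher in the PrE-E fraction than in the EPI-E fraction (96.3%, against 29.1% of all genes tested) and 2 were lower, with a median of 4.86 log2. In libraries labelled Virma cKO, 98 of the 107 fell against Virma WT (91.6%, against 19.4%) and 0 rose, with a median of -1.98 log2. Gata4, at 9.12 log2 between the sorted fractions and -3.72 log2 in the Virma response, and Amn, at 7.61 and -5.19, moved far on both. The shared falls that were not PrE-high were Slc16a3 (-3.40 log2 between the fractions), Ryr1, a calcium release channel (-1.14), Dnmt3l, a cofactor of DNA methylation (-0.16), and Mycn, a MYC transcription factor (0.16). These 4 were picked out after their values were seen. After actinomycin D, an inhibitor of transcription, the slope in PrE-induced cells was positive for 34 of the 107 (31.8%, against 22.2% of all genes), meaning slower loss than the average transcript, and negative for 24 (22.4%, against 18.1%). Calls of slopes were sensitive to the 3 h libraries, with 5210 slopes called over all genes and 8381 without those libraries. Among shared falls, transcripts had a median GC content of 53.9%, against 50.6% over all genes. Fewer cells of a type and less RNA per cell cannot be told apart in these bulk libraries. In 87 shared falls with an entry in RefSeq's promoter table (GRCm38.p6), the letters AGATAA, which GATA factors bind, were on either strand of the 250 bases before a start in 7 genes (8.05%, against 6.99% of 10682 genes tested). The letters CACGTG, an E-box, were there in 13 (14.9%, against 9.81%), TGACGT, the core of a cAMP response element, in 9 (10.3%, against 11.2%), and ACAAT, which SOX factors bind, in 14 (16.1%, against 21.0%).

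**Figure D3:**
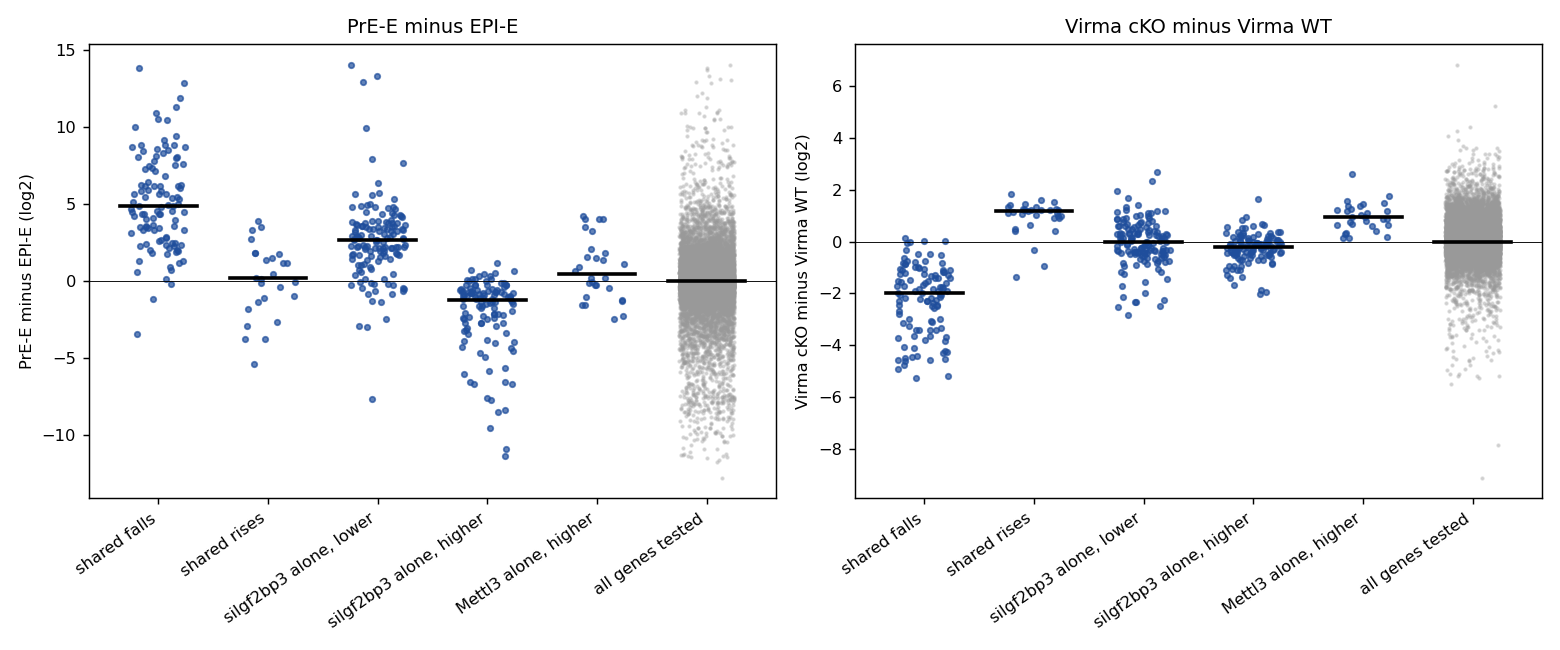
Change of each gene between the sorted PrE-E and EPI-E fractions (left, log2) and between libraries labelled Virma cKO and Virma WT (right, log2), by class, with 1 point per gene, a bar at the class median and all genes tested for comparison. Shared falls lie high in PrE-E (median 4.86) and low in Virma cKO (median -1.98), and the genes that the siIgf2bp3 label alone lowered lie high in PrE-E (2.68) but near 0 in Virma cKO (-0.01).

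The siIgf2bp3 label alone lowered 140 genes and raised 117. Of the lowered genes 113 of 137 tested were higher in PrE-E (82.5%, against 29.1% of all genes). In the Virma response 38 of 139 fell (27.3%, against 19.4%) and 28 rose (20.1%, against 15.6%). Their median difference was 0.85 log2 and their median Mettl3 response 0.03. With GC correction 108 of the 140 stayed in the class, and 23 did in every fit without 1 library. Fam114a1 had 19.99 and 20.2 CPM in Mettl3_cKO libraries, against 18.1 and 16.1 CPM in Mettl3_WT libraries, and 15.8 and 16.0 CPM in siIgf2bp3 libraries, against 41.6 and 44.3 CPM in siNC libraries (difference 1.66 ± 0.19, adjusted p = 0.000104). Rcn3, a chaperone of the secretory pathway, had 100.2 and 95.2 CPM in Mettl3_cKO libraries, against 109.6 and 95.1 CPM in Mettl3_WT libraries, and 66.9 and 73.0 CPM in siIgf2bp3 libraries, against 219 and 162 CPM in siNC libraries (difference 1.37 ± 0.17). The Mettl3 groups overlapped for Rcn3 and were narrowly apart for Fam114a1. The siIgf2bp3 groups were apart for both, which was a condition for naming them and adds nothing to the calls. Egflam, the matrix protein pikachurin (difference 1.55 ± 0.27), and Lrrk1, a kinase (1.35 ± 0.20), were in the same class, as were Snai1, an EMT repressor (1.37 ± 0.26), Stra6, a retinol transporter (1.37 ± 0.28), Plekhh3 (1.81 ± 0.39) and Prss35 (1.35 ± 0.30). The first 4 of these 8 were called in all 8 fits without 1 library, Snai1 in 5, Stra6 in 3, Plekhh3 in 3 and Prss35 in 2.

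Immediate early genes, which follow growth factor signals within minutes, had positive differences in 6 cases, through falls with the siIgf2bp3 label. Of 18 tested, 9 fell and 1 rose in the siIgf2bp3 response (median -0.58), against 4.52% and 2.79% of all genes. In the Mettl3 response 2 rose and 0 fell (median 0.00), against 2.51% and 1.44%. The difference was positive for 6 and negative for 1, against 1.68% and 1.09%. Egr2, a zinc finger factor, had 3.23 and 2.37 CPM in Mettl3_cKO libraries, against 1.52 and 2.11 CPM in Mettl3_WT libraries (0.66 ± 0.39, adjusted p = 0.495), and 6.52 and 5.58 CPM in siIgf2bp3 libraries, against 30.9 and 26.9 CPM in siNC libraries (-2.27 ± 0.19, adjusted p = 0.000198). Its difference was 2.92 ± 0.39 (adjusted p = 0.000330). Jun, an AP-1 subunit, had 95.9 and 103 CPM in Mettl3_cKO libraries, against 99.7 and 87.3 CPM in Mettl3_WT libraries, and 144 and 140.1 CPM in siIgf2bp3 libraries, against 332 and 231 CPM in siNC libraries (difference 1.07 ± 0.18, adjusted p = 0.00421). Jun and Col1a1, described further on, have the same deposited siNC counts, 2825 and 1936. Among genes with 1000 counts or more in both libraries, 2 of 1867 shared both counts with another gene in siNC. The same held for 12 of 2534 in Mettl3_WT, 8 of 2007 in siIgf2bp3 and 2 of 2055 in Mettl3_cKO. Ccn1, a matricellular protein, had 117 and 119.5 CPM in Mettl3_cKO libraries, against 117 and 110.0 CPM in Mettl3_WT libraries, and 133 and 131 CPM in siIgf2bp3 libraries, against 229 and 215 CPM in siNC libraries (difference 0.81 ± 0.12). The siIgf2bp3 groups were apart in all 3 genes and the Mettl3 groups overlapped in Jun. The AP-1 subunits Fos (0.79 ± 0.18) and Fosb (0.89 ± 0.19) and the zinc finger gene Egr1 (0.57 ± 0.12) made up the 6. Myc, the gene with the negative difference (-0.68 ± 0.17, adjusted p = 0.0372), rose with the siIgf2bp3 label (0.66 log2) and stood at -0.01 with the Mettl3 label. Egr2, Jun and Ccn1 were called in all 8 fits without 1 library, Fosb in 4, Fos in 3, and Egr1 and Myc in 2 each.

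Egr2 promoters carry the serum response element, the site through which growth factor signals reach immediate early genes, and it is shown here as the element upstream of the gene of the list with the largest difference. RefSeq (GRCm38.p6) lists several starts of Egr2 on the plus strand of chromosome 10. The first 30 bases span chr10:67537484-67537513 and the next chr10:67537787-67537816, and capitals mark the element.
Egr2 upstream element: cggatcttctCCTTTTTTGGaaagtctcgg
Egr2 downstream element: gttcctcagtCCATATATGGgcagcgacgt
Of the immediate early genes with an entry, 1 of 12 held the element in the 250 bases before a start (8.33%, against 1.39% of all genes tested), and TGACGT was there in 5 of 12 (41.7%, against 11.2%). A match is a description of the letters and not evidence that a factor was bound.

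Stress genes fell with the siIgf2bp3 label in 9 cases. Of 19 tested, 9 fell and 0 rose in the siIgf2bp3 response (median -0.40), against 4.52% and 2.79% of all genes. In the Mettl3 response 1 rose and 0 fell (median 0.03), and the difference was positive for 5, against 1.68% of all genes. With GC correction 12 fell in the siIgf2bp3 response (7.66% of all genes), and 1 rose and 2 fell in the Mettl3 response (3.81% and 6.99%). The correction made 11 differences positive (3.28%). Ddit4, an mTORC1 inhibitor, had 25.3 and 24.6 CPM in Mettl3_cKO libraries, against 22.5 and 23.6 CPM in Mettl3_WT libraries, and 137 and 144 CPM in siIgf2bp3 libraries, against 266 and 211 CPM in siNC libraries (difference 0.88 ± 0.16, adjusted p = 0.00674). Herpud1, of endoplasmic reticulum-associated degradation (0.89 ± 0.17), Chac1, a glutathione-degrading enzyme (1.40 ± 0.31), and the heat shock genes Hspa1b (1.03 ± 0.22) and Hspa1a (1.54 ± 0.34) were the other 4. Both responses entered the difference of Hspa1a, which had 7.71 and 8.87 CPM in Mettl3_cKO libraries, against 4.64 and 3.72 CPM in Mettl3_WT libraries. In siIgf2bp3 libraries it had 7.12 and 7.05 CPM, against 12.5 and 8.57 CPM in siNC libraries. Hspa1a and Hspa1b are near-identical copies, and reads may have been split between them. Among p53 targets the difference was positive for 5 and negative for 1 of 20, against 1.68% and 1.09% of all genes. Btg2, an antiproliferative gene, had 37.0 and 38.8 CPM in Mettl3_cKO libraries, against 29.8 and 32.3 CPM in Mettl3_WT libraries, and 54.2 and 53.1 CPM in siIgf2bp3 libraries, against 78.2 and 87.5 CPM in siNC libraries (difference 0.91 ± 0.16, adjusted p = 0.00340). Cdkn1a, the cell cycle inhibitor p21, rose with the Mettl3 label (0.44 ± 0.08, adjusted p = 0.00149) and stood at -0.40 ± 0.11 with the siIgf2bp3 label (adjusted p = 0.0564; difference 0.82 ± 0.14, adjusted p = 0.00344). Trp53 itself had a difference of -0.48 ± 0.11 (adjusted p = 0.0286).

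Genes that the siIgf2bp3 label alone raised were mostly low in sorted PrE-E cells, 97 of 115 tested being lower in PrE-E (84.3%, against 29.2%). Their median transcript GC content was 45.3%, below the 50.6% of all genes, and 106 of 117 stayed in the class with GC correction, but 7 stayed in every fit without 1 library. Of the naive pluripotency list 6 of 18 rose and 0 fell in the siIgf2bp3 response (median 0.32), against 2.79% and 4.52% of all genes. In the Mettl3 response 0 rose and 1 fell (median 0.00), and the difference was negative for 4, against 1.09% of all genes. With GC correction 9 rose in the siIgf2bp3 response (8.21% of all genes), 3 fell in the Mettl3 response (6.99%) and 10 differences were negative (6.11%). Zfp42, the marker Rex1, had 72.3 and 72.2 CPM in Mettl3_cKO libraries, against 88.7 and 85.8 CPM in Mettl3_WT libraries, and 273 and 260.0 CPM in siIgf2bp3 libraries, against 196 and 197 CPM in siNC libraries (difference -0.71 ± 0.12, adjusted p = 0.00225). It was the member of the list called in all 8 fits without 1 library. Nanog, which holds the epiblast state, had 197 and 182 CPM in Mettl3_cKO libraries, against 176 and 182 CPM in Mettl3_WT libraries, and 321 and 328 CPM in siIgf2bp3 libraries, against 219.8 and 232 CPM in siNC libraries (difference -0.44 ± 0.11, adjusted p = 0.0409, called in 2 of 8 fits). Tfcp2l1, a naive transcription factor, had a difference of -0.47 ± 0.12 and Dppa2, a chromatin factor, one of -0.69 ± 0.14. Pou5f1 (0.05 ± 0.11, adjusted p = 0.849) and Sox2 (-0.07 ± 0.19, adjusted p = 0.877) were not called.

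Called differences of the ERK feedback and Nodal and BMP lists were negative, 3 of 14 and 3 of 12, or 6 and 6 with GC correction. Over all genes 1.09% of differences were called negative, or 6.11% with GC correction. Spry4, a feedback inhibitor of ERK signalling, had 139 and 137 CPM in Mettl3_cKO libraries, against 153 and 143 CPM in Mettl3_WT libraries, and 185 and 204 CPM in siIgf2bp3 libraries, against 115 and 113 CPM in siNC libraries (difference -0.88 ± 0.12, adjusted p = 0.000510). The ERK-responsive factors Etv1 (-1.15 ± 0.20) and Etv5 (-0.53 ± 0.11) were the other called differences among 14 ERK feedback genes, all 3 negative. Bmp4, a BMP ligand (-0.84 ± 0.16), and Tdgf1, the Nodal co-receptor Cripto (-0.58 ± 0.12), had negative differences through a rise with the siIgf2bp3 label. Mest, an imprinted gene expressed from the paternal copy, had 103 and 103 CPM in Mettl3_cKO libraries, against 88.9 and 86.5 CPM in Mettl3_WT libraries, and 71.5 and 70.2 CPM in siIgf2bp3 libraries, against 32.0 and 32.9 CPM in siNC libraries (difference -0.89 ± 0.14, adjusted p = 0.00110). Enox1, a cell-surface oxidase, had 34.9 and 37.9 CPM in Mettl3_cKO libraries, against 36.7 and 39.4 CPM in Mettl3_WT libraries, and 28.02 and 25.3 CPM in siIgf2bp3 libraries, against 10.2 and 11.1 CPM in siNC libraries (difference -1.38 ± 0.19, adjusted p = 0.000583). Spry4, Etv1, Mest and Enox1 were called in all 8 fits without 1 library, and Etv5 and Tdgf1 in 2. The zinc finger genes Zfp945 (-1.13 ± 0.28) and Zfp459 (-1.13 ± 0.21) and the X-linked gene Ct55 (-1.17 ± 0.31) also had large negative differences, called in 4, 5 and 1 of the 8 fits. Zscan4e, of the 2-cell-like family whose copies share reads and are uncertain, had 1.08 and 0.710 CPM in Mettl3_cKO libraries, against 1.69 and 1.01 CPM in Mettl3_WT libraries, and 3.98 and 5.58 CPM in siIgf2bp3 libraries, against 0.941 and 1.07 CPM in siNC libraries.

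Mitochondrially encoded transcripts took 1.55% and 1.24% of counts in Mettl3_cKO libraries, against 1.18% and 1.37% in Mettl3_WT libraries, and 0.793% and 0.696% in siIgf2bp3 libraries, against 0.389% and 0.538% in siNC libraries. The Mettl3 groups overlapped and the siIgf2bp3 groups did not. Of the list 6 of 9 tested rose in the siIgf2bp3 response (2.79% of all genes) and 1 of 10 rose in the Mettl3 response (2.51%). The difference was negative for 2 of 10 (1.09% of all genes). Those were mt-Nd1 (-0.92 ± 0.19, adjusted p = 0.0233) and mt-Nd4 (-0.69 ± 0.16, adjusted p = 0.0326), subunits of complex I. The transcripts are poor in GC (median 37.1%), the list median of the difference was -0.61, and it was -0.27 with GC correction. That correction made 4 differences negative and 1 positive, against 6.11% and 3.28% of all genes. It gave 6 rises and 1 fall in the siIgf2bp3 response (8.21% and 7.66%) and 4 rises in the Mettl3 response (3.81%).

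**Figure D4:**
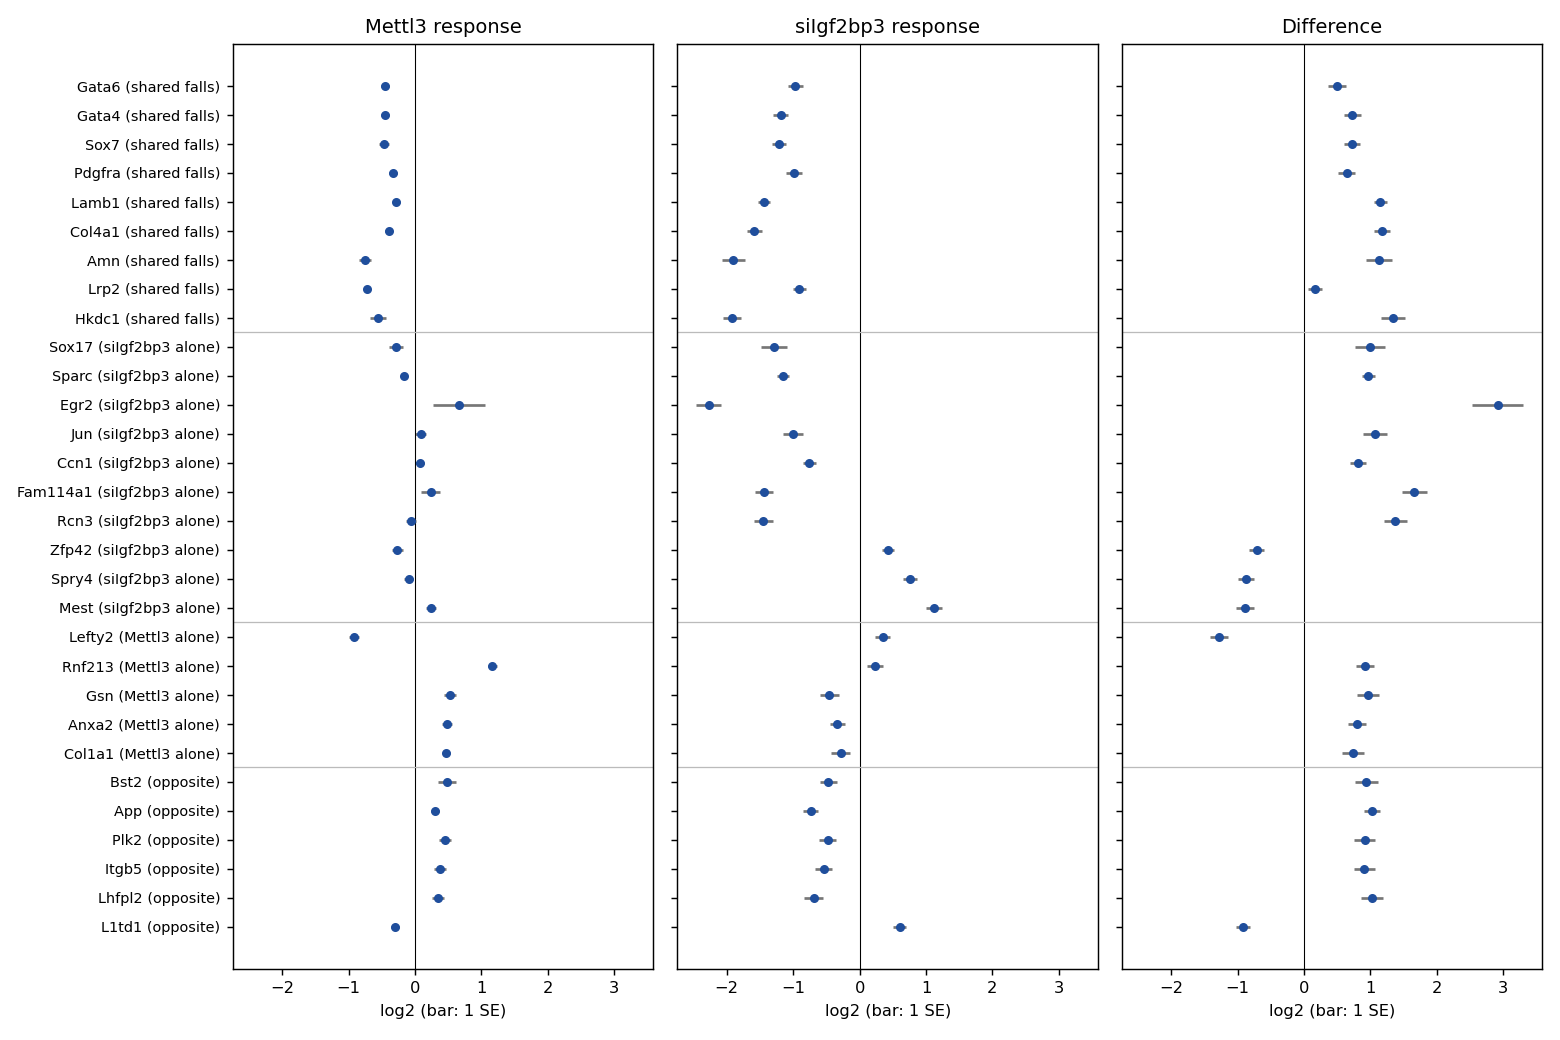
Mettl3 response, siIgf2bp3 response and difference (log2, points, with bars of 1 SE) for 30 named genes, grouped by class and running down the page. Shared falls have both responses below 0, genes of the siIgf2bp3 label alone have a siIgf2bp3 response further from 0 than the Mettl3 response, and the 6 opposite genes have the responses on either side of 0.

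Of the 35 genes of the Mettl3 label alone 29 were higher, with a median of 0.45 log2 in the Mettl3 response and -0.36 in the siIgf2bp3 response, and 6 were lower. In the Virma response 22 of the 29 rose (75.9%, against 15.6% of all genes) and 0 fell. With GC correction 33 of the 35 stayed in the class, but 2 did in every fit without 1 library, both among the 6 lower genes. Lefty2, a secreted inhibitor of Nodal, was one of the lower genes. It had 86.2 and 80.6 CPM in Mettl3_cKO libraries, against 164 and 153 CPM in Mettl3_WT libraries (-0.92 ± 0.08, adjusted p = 1.50e-08), and 75.6 and 74.5 CPM in siIgf2bp3 libraries, against 61.8 and 55.4 CPM in siNC libraries (0.35 ± 0.12, adjusted p = 0.0935). The groups were apart in both tables and in opposite directions, and the difference was -1.29 ± 0.13 (adjusted p = 4.81e-05). It was called in all 8 fits without 1 library. Its paralog Lefty1 had a difference of -0.33 ± 0.20 (adjusted p = 0.372), and Nodal one of -0.42 ± 0.18 (adjusted p = 0.221). The other 5 lower genes were L1td1, which was also an opposite call, Pip4k2a, a phosphoinositide kinase (-0.85 ± 0.22), Mgat4a, a glycosyltransferase (-0.88 ± 0.21), Plekha2, a phosphoinositide-binding adaptor (-0.65 ± 0.15), and Vangl1, a planar polarity protein (-0.56 ± 0.13).

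Gsn, the actin-severing gelsolin and one of the 29 higher genes, had 67.8 and 67.4 CPM in Mettl3_cKO libraries, against 48.1 and 46.2 CPM in Mettl3_WT libraries, and 20.3 and 23.3 CPM in siIgf2bp3 libraries, against 30.6 and 28.8 CPM in siNC libraries (difference 0.96 ± 0.17, adjusted p = 0.00370). Anxa2, an annexin, had 107 and 111 CPM in Mettl3_cKO libraries, against 77.6 and 79.0 CPM in Mettl3_WT libraries, and 82.1 and 80.2 CPM in siIgf2bp3 libraries, against 92.2 and 111 CPM in siNC libraries (difference 0.80 ± 0.14). Flnc, filamin C (0.87 ± 0.17), Zyx, zyxin (0.65 ± 0.17), Parva, parvin alpha (0.74 ± 0.18), and Myl9, a myosin light chain (1.75 ± 0.46), were in the class as well. In the same libraries 15 of 16 feeder fibroblast markers rose with the Mettl3 label, by a median of 0.47, against 0.45 for the 29 genes, and their part in these rises was not tested. Gsn, Anxa2, Flnc, Zyx, Parva, Myl9, Pip4k2a, Mgat4a, Plekha2 and Vangl1 were chosen from the class after their values were seen. Col1a1, the alpha-1 chain of type I collagen, had 1149 and 1210.0 CPM in Mettl3_cKO libraries, against 888 and 822 CPM in Mettl3_WT libraries, and 228 and 237 CPM in siIgf2bp3 libraries, against 332 and 231 CPM in siNC libraries. Its difference of 0.74 ± 0.17 (adjusted p = 0.0253) was called in 2 of the 8 fits, and siNC replicate 2 lay level with the siIgf2bp3 libraries.

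Interferon response genes rose with the Mettl3 label, but 2 differences were called. Of 30 tested, 17 rose and 0 fell in the Mettl3 response (median 1.20 log2), against 2.51% of all genes rising. Some of the 30 passed the count filter only through Mettl3_cKO libraries, such as Rtp4 (4.21 and 3.31 CPM, against 0.422 and 0.302 CPM) and Ifit1. Such genes could come out as rises but hardly as falls, which bears on the 17 and on the median. In the siIgf2bp3 response 18 could be tested, of which 2 rose and 1 fell (median 0.39), or 5 and 1 with GC correction. Over all genes 2.79% rose and 4.52% fell, or 8.21% and 7.66% with GC correction. The difference was called for 2 of 30, both positive (median 0.75), against 1.68% of all genes. Rnf213, an interferon-induced ubiquitin ligase, had 184 and 185 CPM in Mettl3_cKO libraries, against 82.2 and 83.0 CPM in Mettl3_WT libraries (1.17 ± 0.07, adjusted p = 1.10e-10). In siIgf2bp3 libraries it had 94.6 and 96.8 CPM, against 73.2 and 88.1 CPM in siNC libraries (0.24 ± 0.12, adjusted p = 0.232; difference 0.91 ± 0.13, adjusted p = 0.000904, called in all 8 fits). Isg15, a ubiquitin-like protein, had 12.6 and 14.3 CPM in Mettl3_cKO libraries, against 1.01 and 1.51 CPM in Mettl3_WT libraries (3.42 ± 0.28, adjusted p = 1.50e-08), and 0.242 and 0.455 CPM in siIgf2bp3 libraries, against 0.353 and 0.238 CPM in siNC libraries. The last 4 libraries held so few counts that the gene was not tested there, and the difference of 3.18 ± 0.99 missed the threshold (adjusted p = 0.0876). Oasl2, a 2'-5'-oligoadenylate synthetase-like gene, rose with the Mettl3 label (1.97 ± 0.25) and stood at 0.67 ± 0.32 with the siIgf2bp3 label (adjusted p = 0.216; difference adjusted p = 0.0999). Ifi27 rose in both (0.80 and 2.04 log2). A difference that was not called does not show that the labels acted alike on a gene.

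Promoters of interferon genes carry a response element, GAAA, any 2 bases and GAAA, bound by interferon regulatory factors, and the matches in the genes that rose with the Mettl3 label are shown. Of the 17, 13 had an entry in RefSeq's table (GRCm38.p6) and 4 held the element on either strand of the 250 bases before the start (30.8%, against 2.96% of all genes tested and 3.46% of all 27025 genes of the table). In the whole list, risen or not, it was 7 of 22 (31.8%). Overlapping matches are joined, and capitals mark them, with TTTC in place of GAAA where the element lies on the other strand.
Isg15, chr4:156200855-156200916, minus strand: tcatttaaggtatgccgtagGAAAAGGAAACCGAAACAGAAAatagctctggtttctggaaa
Bst2, chr8:71537567-71537622, minus strand: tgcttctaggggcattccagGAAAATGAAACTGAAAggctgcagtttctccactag
Ifit1, chr19:34640765-34640833, plus strand: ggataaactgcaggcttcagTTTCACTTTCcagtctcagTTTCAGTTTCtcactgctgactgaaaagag
Rsad2, chr12:26456543-26456592, minus strand: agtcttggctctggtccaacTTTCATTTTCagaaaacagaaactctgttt
Isg15 had 3 matches, Bst2 and Ifit1 2 each and Rsad2 1. Ifit1, which binds foreign RNA, rose with the Mettl3 label to 5.74 and 5.56 CPM in Mettl3_cKO libraries, against 0.507 and 0.503 CPM in Mettl3_WT libraries, and stood at 0.121 and 0.341 CPM in siIgf2bp3 libraries, against 0 and 0.238 CPM in siNC libraries. Bst2 shared the element with the other 3 but was lower with the siIgf2bp3 label.

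The 6 genes called in opposite directions were 5 that rose with the Mettl3 label and fell with the siIgf2bp3 label and 1 that did the reverse. Bst2, tetherin, which holds enveloped viruses on the cell surface, had 25.9 and 25.3 CPM in Mettl3_cKO libraries, against 18.2 and 18.8 CPM in Mettl3_WT libraries (0.48 ± 0.13), and 46.9 and 46.0 CPM in siIgf2bp3 libraries, against 68.8 and 58.9 CPM in siNC libraries (-0.47 ± 0.13). Its adjusted p in the siIgf2bp3 response lay just under the threshold, and its difference was 0.93 ± 0.17 (adjusted p = 0.00671). App, the amyloid precursor protein, had 236 and 252 CPM in Mettl3_cKO libraries, against 203 and 194 CPM in Mettl3_WT libraries, and 80.1 and 92.2 CPM in siIgf2bp3 libraries, against 146 and 139 CPM in siNC libraries (difference 1.02 ± 0.12, adjusted p = 0.000154). Plk2, a polo-like kinase and p53 target (0.91 ± 0.16), Itgb5, an integrin beta subunit (0.90 ± 0.16), and Lhfpl2, a tetraspan membrane protein (1.02 ± 0.17), were also higher with the Mettl3 label and lower with the siIgf2bp3 label. L1td1, an RNA-binding protein of pluripotent cells, ran the other way. It had 373 and 365 CPM in Mettl3_cKO libraries, against 457 and 457 CPM in Mettl3_WT libraries (-0.30 ± 0.06), and 389 and 376 CPM in siIgf2bp3 libraries, against 243 and 257 CPM in siNC libraries (0.60 ± 0.09; difference -0.92 ± 0.11, adjusted p = 8.60e-05). In all 6 genes both perturbed libraries lay outside the range of their controls in each table, which was a condition for naming them and adds nothing to the calls. The differences of App, Lhfpl2 and L1td1 were called in all 8 fits without 1 library, those of Plk2 and Itgb5 in 7 and that of Bst2 in 5. Of 10 antigen presentation genes 3 had a called difference, all positive, against 1.68% of all genes (5 with GC correction, all positive, against 3.28%). These were Tap1, a peptide transporter (1.51 ± 0.26, adjusted p = 0.00340), and the class I genes H2-D1 (1.06 ± 0.18) and H2-K1 (0.83 ± 0.17). In the Mettl3 response 2 of 10 rose and 0 fell (median 0.37), against 2.51% and 1.44% of all genes. In the siIgf2bp3 response 0 of 9 rose and 3 fell (median -0.65), against 2.79% and 4.52% of all genes. For Tap1 the Mettl3 groups lay closer together than the siIgf2bp3 groups. B2m, the class I light chain, stood higher with the Mettl3 label. With the siIgf2bp3 label it stood only narrowly above its controls and was not called. It had 45.2 and 44.7 CPM in Mettl3_cKO libraries, against 26.2 and 26.2 CPM in Mettl3_WT libraries. In siIgf2bp3 libraries it had 16.5 and 19.8 CPM, against 14.5 and 16.3 CPM in siNC libraries. Class I genes have close copies, and their counts are uncertain.

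Shared rises included genes of fibroblasts and connective tissue. Over the 32 the median was 0.51 log2 with the Mettl3 label and 0.84 with the siIgf2bp3 label, all 32 stayed in the class with GC correction, and 6 did in every fit without 1 library. In the Virma response 27 of 32 rose (84.4%, against 15.6%). Ccl11, the chemokine eotaxin, had 66.8 and 64.0 CPM in Mettl3_cKO libraries, against 37.9 and 36.9 CPM in Mettl3_WT libraries, and 6.64 and 7.51 CPM in siIgf2bp3 libraries, against 1.88 and 1.19 CPM in siNC libraries (difference -1.39 ± 0.30, adjusted p = 0.0176). Dcn, the proteoglycan decorin, had 103 and 97.3 CPM in Mettl3_cKO libraries, against 60.1 and 67.4 CPM in Mettl3_WT libraries, and 17.8 and 23.3 CPM in siIgf2bp3 libraries, against 11.1 and 12.7 CPM in siNC libraries (difference -0.14 ± 0.20, adjusted p = 0.750). Cdh11, a mesenchymal cadherin (0.63 and 1.23 log2), Adamts12, a metalloprotease (0.66 and 1.72), Pla2g7, a phospholipase (0.76 and 0.98), and Emp1, a membrane protein (0.62 and 0.96), rose in both with no called difference. Il1rl1, the interleukin-33 receptor, rose in both with a called difference (-1.63 ± 0.33, adjusted p = 0.0112), with responses of 0.55 log2 to the Mettl3 label and 2.17 to the siIgf2bp3 label. Cxcl5, a chemokine, and Slc7a11, a cystine transporter, had the most negative differences among genes named here by size (-1.71 ± 0.43 and -1.68 ± 0.42), called in 3 and 1 of 8 fits, with 3.86 and 5.58 CPM and 3.14 and 3.19 CPM in siIgf2bp3 libraries, against 1.29 and 0.834 CPM and 0.706 and 0.834 CPM in siNC libraries.

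Feeder fibroblast markers were tested as a list of 16, of which 15 rose and 0 fell in the Mettl3 response (median 0.47; 2.51% of all genes rose), 3 rose and 0 fell in the siIgf2bp3 response (Lum, Dcn and Prrx1; median 0.25; 2.79% of all genes rose; 6 with GC correction), and 1 difference was called (Col1a1). None of the 16 was without counts in all 8 libraries. Their summed share of counts was 0.403% and 0.422% in Mettl3_cKO libraries, against 0.296% and 0.281% in Mettl3_WT libraries, so those groups were apart. It was 0.0841% and 0.0836% in siIgf2bp3 libraries, between the 0.0915% and 0.0717% of the siNC libraries. The part of other cells in the rises was not tested. Lists of trophoblast, mesoderm, neural, blood and endothelial markers took at most 0.0190% of counts each in any library.

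**Figure D5:**
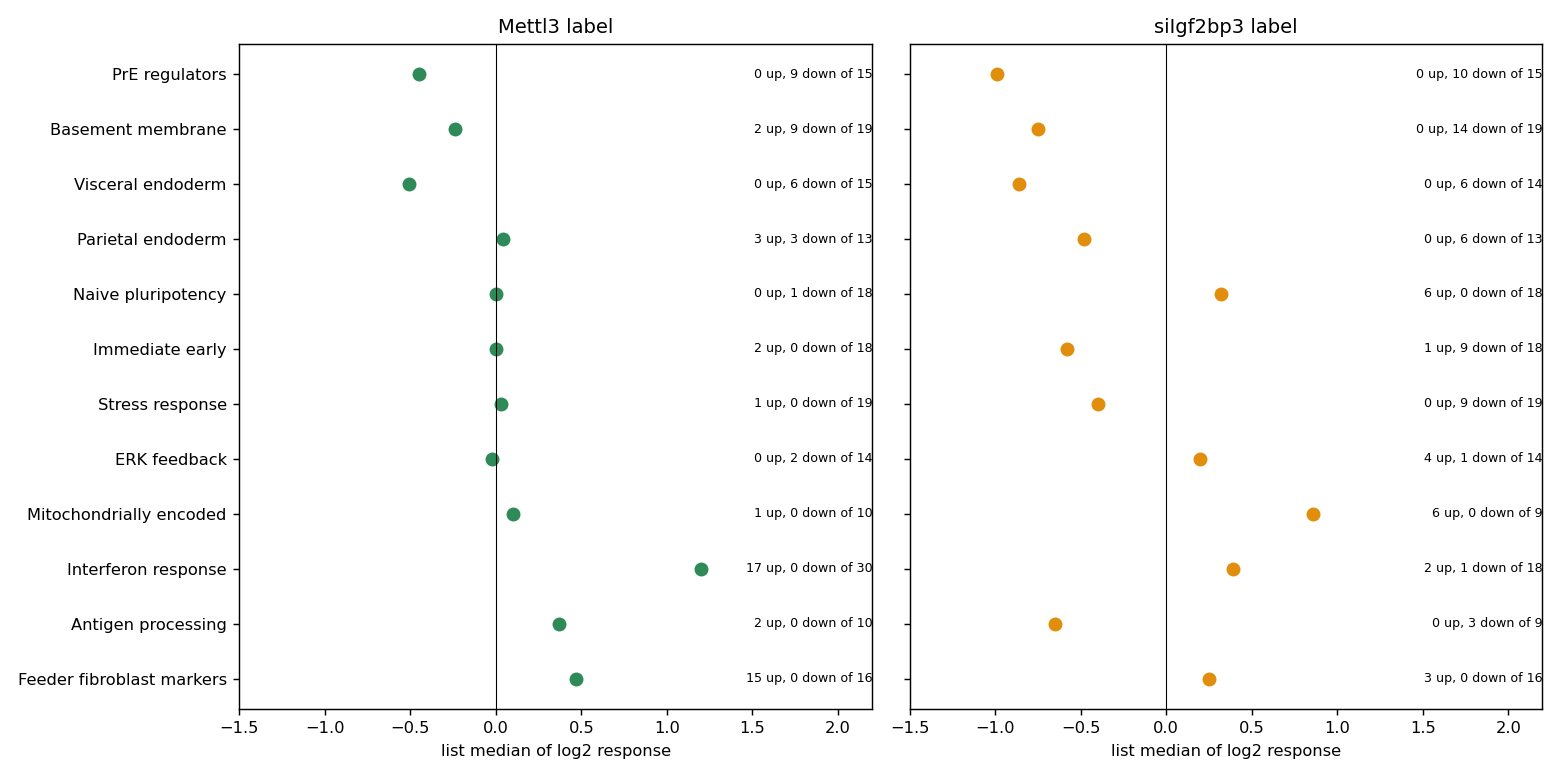
Median response of gene lists (log2 of perturbed over control) with the Mettl3 label and the siIgf2bp3 label, with the number of members called higher and lower and the number tested printed beside each point. PrE, basement membrane and visceral endoderm lists lie below 0 with both labels, interferon and feeder fibroblast lists lie above 0 with both but further with the Mettl3 label, and immediate early and stress lists lie below 0 with the siIgf2bp3 label and near 0 with the Mettl3 label. The interferon medians are not like for like, since 30 members were tested with the Mettl3 label and 18 with the siIgf2bp3 label.

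Some lists gave no called difference in edgeR's test. Of 9 m6A writers 1 had an unadjusted p below 0.05, and of 11 m6A readers and erasers 2 did, with no call by DESeq2 or limma voom. Of 18 cholesterol synthesis genes 2 had an unadjusted p below 0.05, again with no call by the other tools. Of 20 cell cycle genes 8 did, and DESeq2 and limma voom called 1 each. GC correction gave 8 called differences of the 20, all negative, and for cholesterol synthesis 1 positive and 2 negative. With that correction 3.28% of all genes had a positive and 6.11% a negative difference. Wtap, a subunit of the writer complex, rose with the siIgf2bp3 label (0.42 ± 0.11, adjusted p = 0.0490), with a difference of -0.49 ± 0.14 (adjusted p = 0.0705). With GC correction 0 of the 9 writers, and so not Wtap, rose with the siIgf2bp3 label. Pcna, the replication clamp, rose with that label too (0.47 ± 0.09, adjusted p = 0.0170; difference -0.40 ± 0.11, adjusted p = 0.0552). A value above the threshold does not show that the labels acted alike on these genes.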

How the data were processed

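RNA-seq of EPSC-derived cultures was counted by the authors, who deposited raw counts per gene symbol in 1 table per experiment. The submitters' processing notes name mm39, the tools STAR 2.7.11b and Subread, quality control with FastQC 0.12.1, trimming with Trim Galore, and DESeq2. Genes with too few counts were removed with edgeR's filterByExpr (minimum count 10, minimum total 15). Each response was fitted on its own table, and the difference on 8 libraries joined by symbol with 4 group means, with edgeR 4.0.16 (R 4.3.3), TMM scaling, robust quasi-likelihood tests and Benjamini-Hochberg adjustment over all genes tested (threshold 0.05). The SE is the log2 value divided by the root of F. GC correction used a spline of transcript GC content per library (6 degrees of freedom, GENCODE M21). Alternatives were DESeq2, limma 3.58.1 voom, other scalings, filters, a replicate block and leaving out each library. The procedure was tested on simulated data. Named genes were Mettl3, Igf2bp3, core PrE and pluripotency genes, the 12 shared falls and 6 shared rises with the largest smaller response, opposite calls, the 10 largest differences in each direction, and up to 5 members of each list, with ranked genes required to average 10 CPM or more, to have non-overlapping groups and to carry no predicted-locus symbol. Members and lists were chosen with earlier results of these data known. Counting error limits low genes, and other tables served as readouts only. Some members of the lists are not reported here.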

Additional observations from a re-analysis of the deposited data

How the results depend on the processing

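Counts of calls moved with the processing, and the cause was not tested. GC correction gave 1417 calls in the Mettl3 response, 2050 in the siIgf2bp3 response and 1265 differences, with 293 shared falls, 86 shared rises, 51 opposite calls, 213 genes of the Mettl3 label alone and 849 of the siIgf2bp3 label alone. Scaling to ribosomal protein genes gave 274 Mettl3 calls, 148 differences, 2 opposite calls, 12 genes of the Mettl3 label alone and 106 of the siIgf2bp3 label alone. DESeq2 gave 213 Mettl3 calls, 57 shared falls, 18 shared rises, 3 opposite calls and 17 genes of the Mettl3 label alone. Single responses from the fit of 8 libraries gave 173 Mettl3 and 2387 siIgf2bp3 calls, 46 shared falls and 15 genes of the Mettl3 label alone. No filter on low counts gave 1699 siIgf2bp3 calls, 899 differences, 51 shared rises, 16 opposite calls, 83 genes of the Mettl3 label alone and 605 of the siIgf2bp3 label alone. A change of at least 0.5 log2 in both responses left 33 shared falls, 16 shared rises and 0 opposite calls, and a threshold of 0.01 left 44, 6 and 2. Without the 3 h libraries 8381 decay slopes were called.

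Whether the replicate numbers pair the samples cannot be told. Deviations of same-numbered libraries correlated at -0.14 in the Mettl3 table and -0.05 in the siIgf2bp3 table. GC trends of opposite sign enter these coefficients (rho 0.36 for Mettl3_cKO and -0.38 for Mettl3_WT, 0.18 for siIgf2bp3 and -0.54 for siNC) and could hide a pairing. The replicate block gave 1467 siIgf2bp3 calls, 211 differences, 18 genes of the Mettl3 label alone and 167 of the siIgf2bp3 label alone. The replicate block with GC correction gave 974 Mettl3 calls, 2427 siIgf2bp3 calls, 1077 differences, 251 shared falls, 85 shared rises, 38 opposite calls, 121 genes of the Mettl3 label alone and 798 of the siIgf2bp3 label alone. A crossed replicate block, chosen after seeing the data, gave 1421 Mettl3 calls, 1979 siIgf2bp3 calls, 1135 differences, 245 shared falls, 111 shared rises, 53 opposite calls, 186 genes of the Mettl3 label alone and 774 of the siIgf2bp3 label alone.

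Leaving out 1 library gave 242 to 4936 siIgf2bp3 calls, 65 to 2818 differences, 58 to 143 shared falls, 9 to 89 shared rises, 0 to 40 opposite calls, 7 to 89 genes of the Mettl3 label alone and 36 to 2521 of the siIgf2bp3 label alone. Among the gene values printed, 15 of the alternatives changed a sign, all of values not called in the main test. Leaving out 1 library moved the difference of Dab2 between -0.05 and 0.30, that of Dcn between -0.32 and 0.07, that of Sox2 between -0.40 and 0.20 and that of Pou5f1 between -0.04 and 0.13. It moved the siIgf2bp3 response of Igf2bp3 between -0.01 and 0.21, the Mettl3 response of Mettl3 between -0.07 and 0.03 and that of Myc between -0.04 and 0.02. With GC correction the difference of Dcn became 0.01 (0.02 with the block as well) and that of Pou5f1 -0.18 (-0.18), and the response of Igf2bp3 became -0.01 (-0.01). With scaling to library totals the Mettl3 response of Myc became 0.01. With 2 libraries a group, depth and replicate spread limit what can be called among low genes.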
